A study of Rattus norvegicus with 65 samples.

Results

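The genes described here are 40 rat genes of DNA replication and its transcriptional control: the MCM helicase core, origin recognition and licensing, helicase activation, the replicative polymerases and primase, the sliding clamp and its loader, single-strand binding and nucleotide supply, E2F factors, cyclin E, and maintenance methylation. They were chosen by symbol, and all 40 were found among the 14554 genes of the deposited table. The table holds estimated read counts for 65 libraries of polyA RNA prepared from cultures of neonatal rat cardiomyocytes, the beating muscle cells of the heart. Cells from 3 litters were mixed before plating, kept first in serum medium, starved of serum overnight, and then exposed for 6 or 24 h. The 5FU groups received 10 mM 5-fluorouracil, a pyrimidine analogue used against cancer, and their control, DMSO1, received 1% DMSO. The Ace groups received 2.5 mM acetaminophen, a pain reliever, and the Dox groups received 1.25 µM doxorubicin, an anthracycline that binds DNA and acts on topoisomerase II. Ace and Dox share the control DMSO2, which received 0.25% DMSO, so their values are given side by side and are not independent of each other. In the paper's separate dose tests at 24 h, all 3 drug doses lowered cell viability, measured as reducing capacity. Only the Dox dose also raised cell death significantly. There were 6 libraries each for 5FU and DMSO1 at both times and for Ace at 6 h, and 7 libraries in every other group. Because every culture came from the same mixture of cells, the p-values measure the spread between cultures and not between animals.

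Replication starts at origins bound by the origin recognition complex, where Cdc6 and Cdt1 load the ring of Mcm2 to Mcm7. When a cell enters S phase, cyclin E with its kinase, Cdc45 and the GINS proteins turn the ring into an active helicase, and polymerases, the PCNA clamp and its loader follow the fork. Many of these genes are transcribed under E2F factors, which pocket proteins such as Rb hold back in resting cells. E2f1 and E2f2 are activators, and E2f7 and E2f8 are repressors that are themselves E2F targets. Heart muscle cells of rats divide before and shortly after birth and then largely leave the cell cycle, so these genes are high in the fetal heart and low in the adult.

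Total estimated counts ran from 14332827 to 25738297 per library, and no gene of the set had fewer than 18 counts in any library. CPM below are counts per 1000000 of a library's total after scaling with TMM, edgeR's normalization for RNA composition, and a level is given as the median of a group's libraries with the lowest and the highest in parentheses. CPM values are compared between groups of the same gene and not between genes. In 5 libraries the 40 genes, or all genes, deviated more from the rest of their group than elsewhere: library 1 of 5FU at 6 h, library 7 of Ace at 24 h, library 1 of DMSO1 at 24 h, and libraries 6 and 7 of Dox at 24 h. Library 7 of Ace at 24 h had a median deviation of -0.304 on the log2 scale over the 40 genes, and libraries 6 and 7 of Dox at 24 h had 0.256 and -0.315. All 12 cardiomyocyte markers measured were present in every group, with summed levels of 27100 to 84000 CPM. The 10 fibroblast markers were present too, at 1970 to 20000 summed CPM. In bulk RNA, fewer cells of a type and less RNA per cell cannot be told apart.

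The controls alone showed a fall with time. From 6 to 24 h in culture, 37 of the 40 genes were lower in the DMSO controls (edgeR's quasi-likelihood test, Benjamini-Hochberg FDR below 0.01, called hereafter). Of all 14554 genes, 32.7% were called higher and 31.9% lower in the same comparison, and the median log2 change was -0.95 over the 40 genes and 0.01 over all genes. The steepest falls were those of Mcm5 (log2 fold change -1.81, SE 0.0655, edgeR adjusted p = 7e-34), a helicase subunit, Gins1 (log2 -1.67, SE 0.0813, edgeR adjusted p = 1.8e-27), part of the GINS complex, and Mcm6 (log2 -1.46, SE 0.0752, edgeR adjusted p = 2.9e-26), another helicase subunit. The other genes, Gins2, Pola2 and Rfc1, were not called, with log2 changes of -0.09, -0.04 and -0.02. Orc2 and Rpa1 were called with log2 fold changes of only -0.16 and -0.12, and the calls were lost when any of 6 libraries (Orc2) or library 1 of DMSO2 at 6 h (Rpa1) was left out. All 7 markers of dividing cells (Mki67, Top2a, Birc5, Bub1, Aurkb, Cdk1 and Ccnb1) also fell, from 312 to 391 summed CPM in DMSO2 at 6 h to 183 to 216 at 24 h, while all 10 fibroblast markers rose. Their part in the result was not tested.

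**Figure D1:**
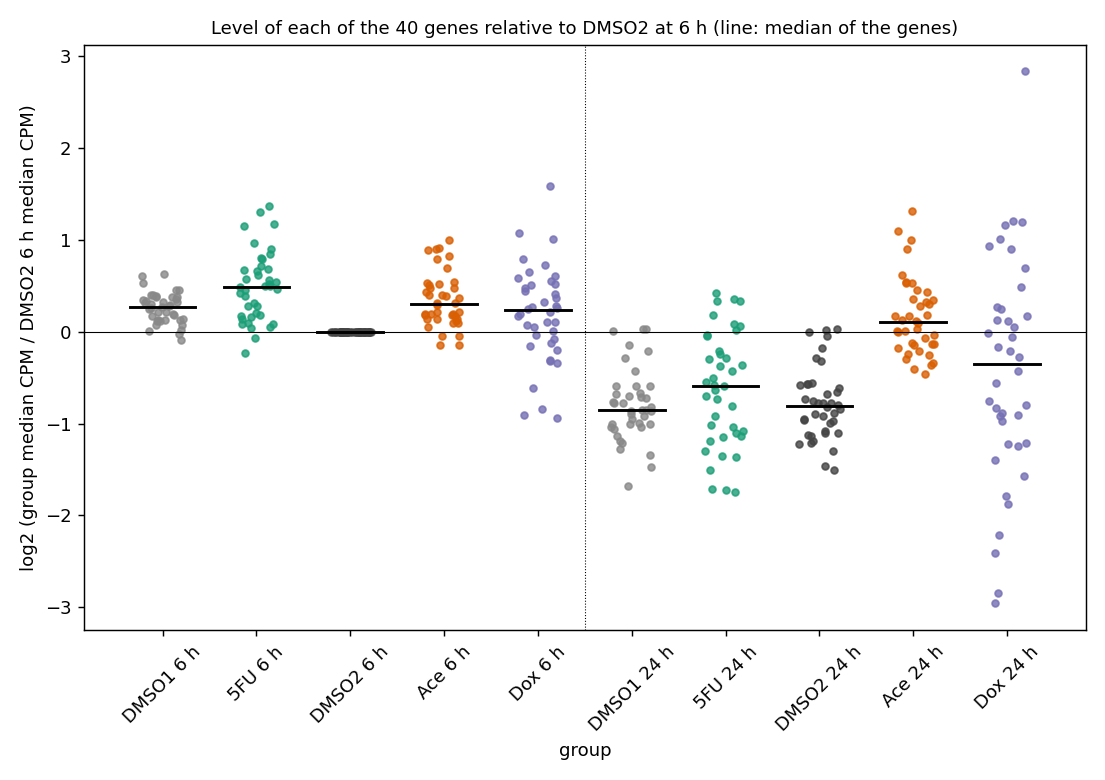
Each point is 1 of the 40 genes: the log2 ratio of its median CPM in a group to its median in DMSO2 at 6 h, with 6 h groups to the left of the dotted line and 24 h groups to the right, and the bar is the median of the genes. At 24 h the bars of both DMSO groups sit at -0.85 and -0.81, that of 5FU at -0.59, that of Dox at -0.35 over a wide spread, and that of Ace at 0.11.

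The controls also differed from each other at 6 h. With 1% DMSO, 12 of the 40 genes were called, all of them higher than with 0.25% DMSO, against 9.87% higher and 6.6% lower of all genes. These were Mcm4, Mcm5, Mcm6, Orc2, Cdc6, Cdt1, Prim1, Pcna, Rrm1, E2f1, E2f7 and Ccne2, and the largest differences were those of E2f7 (log2 fold change 0.70, SE 0.147, edgeR adjusted p = 0.00019) and Ccne2 (log2 0.69, SE 0.111, edgeR adjusted p = 2.8e-06). With library-size scaling in place of TMM the count was 6, with 5 higher and 1 lower. With single libraries of the 13 left out, the call was lost in 10 cases for Mcm6, 6 for Cdt1, 5 for Orc2, 3 for Prim1 and 1 for Rrm1. At 24 h only Pola2 was called, lower with 1% DMSO (log2 fold change -0.24, SE 0.0531, edgeR adjusted p = 0.0083), against 0.137% higher and 0.295% lower of all genes. The Pola2 call was lost when any of 10 of the 13 libraries was left out. An unadjusted p under 0.05 was found for 7 of the 40 genes and for 2370 of all 14554, and these shares are near each other. Because the controls differ, an effect of 5FU and an effect of Ace or Dox each stand against their own vehicle.

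Against its own control, each drug raised more genes of the set than it lowered. At 6 h 5FU raised 18 genes and lowered 2, against 23.4% higher and 24.5% lower of all genes, and at 24 h it raised 16 and lowered 4, against 28% and 27.8%. Library-size scaling changed the split at 6 h to 11 higher and 3 lower. Ace raised 20 and lowered 1 at 6 h, against 16.5% and 15.2% of all genes, and raised 36 and lowered 1 at 24 h, against 18.2% and 19.1%. Dox raised 19 and lowered 6 at 6 h, against 31.5% and 32.7%, and raised 21 and lowered 12 at 24 h, against 40.4% and 41%. The Dox counts at 24 h do not stand far from the shares of all genes. With library-size scaling the split for Dox at 6 h was 13 higher and 9 lower, and that scaling moved the median of all genes by -0.15 on the log2 scale. The median log2 fold change over the 40 genes was 0.24 and 0.19 for 5FU at 6 and 24 h, 0.30 and 0.82 for Ace, and 0.23 and 0.35 for Dox, and the medians over all genes lay between -0.01 and 0.00. Changes past 2-fold were called for 18 genes, all higher, with Ace at 24 h, for 12 higher and 4 lower with Dox at 24 h, for 3 higher and 1 lower with Dox at 6 h, and for 1 higher with Ace at 6 h, and the 5FU changes all stayed under 2-fold. The share of all genes past 2-fold was not counted, so these counts describe the 40 genes without a background. Without the 5 libraries that stand apart, 5FU had 19 calls, Ace 30 and Dox 30 at 6 h, and 25, 38 and 33 at 24 h. The shares of all genes called in that fit were not counted.

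**Figure D2:**
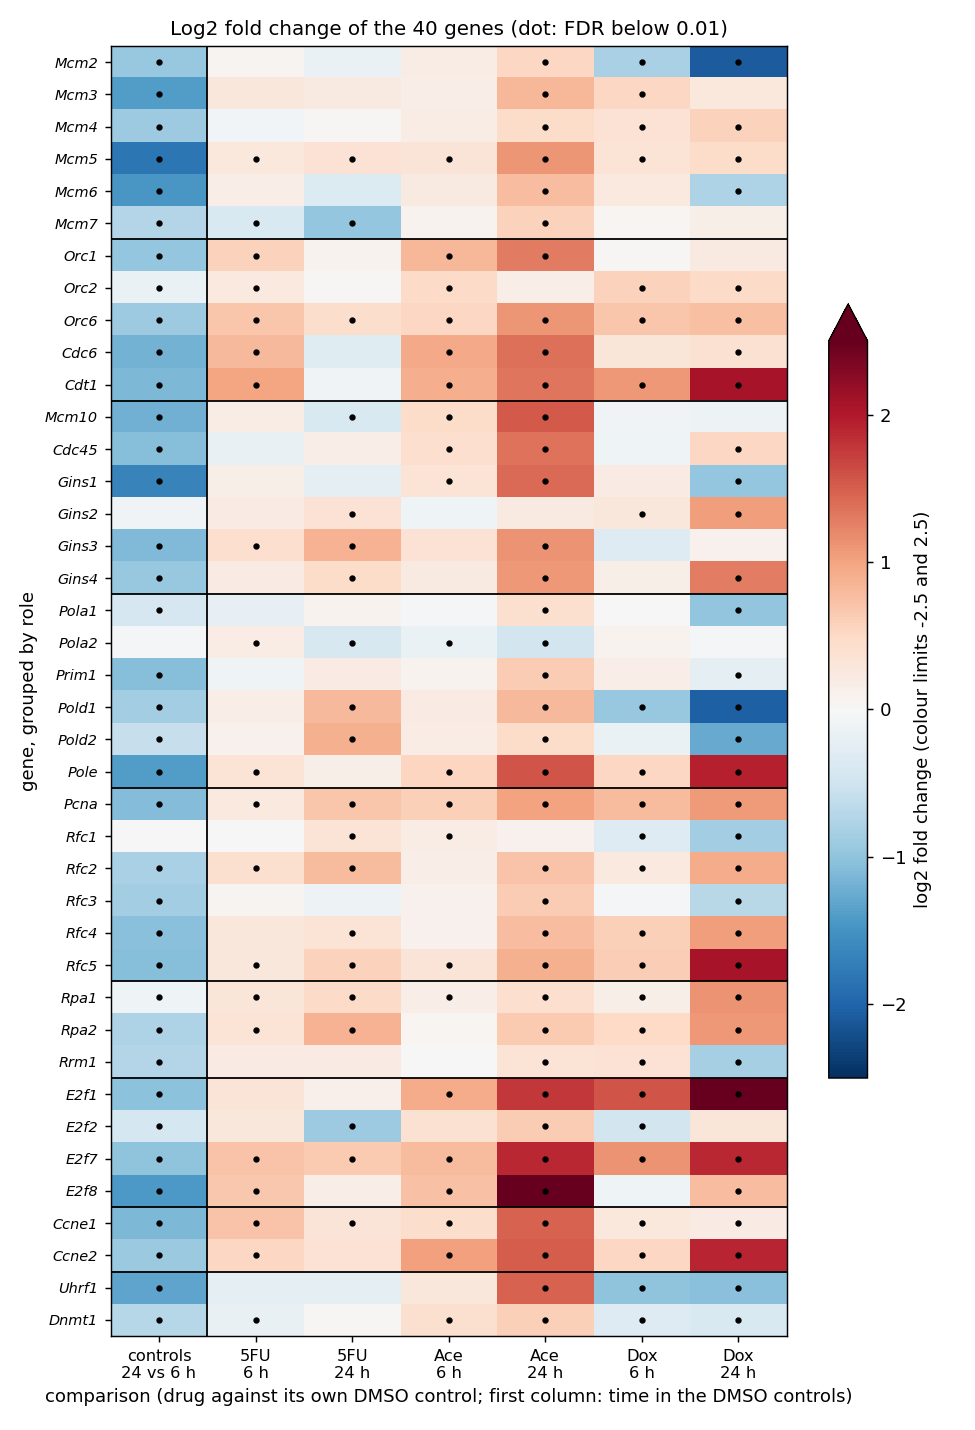
Each cell is the log2 fold change of 1 gene (rows, grouped by role) in 1 comparison (columns), red for higher and blue for lower, and a dot marks a call at FDR below 0.01. The column of time in the controls is blue for 37 genes, the Ace column at 24 h is red for 36, and the Dox column at 24 h is split between 21 red and 12 blue calls.

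All 5 genes of origin recognition and licensing were called higher with 5FU and with Ace at 6 h, and 3 of them with Dox, against 23.4%, 16.5% and 31.5% of all genes. Cdt1, a loader of the MCM ring, had at 6 h 17.1 CPM (14.9 to 18.8) in DMSO1, 34 (28.1 to 39.5) in 5FU, 13.2 (11.3 to 15.3) in DMSO2, 24.9 (23 to 25.8) in Ace and 27.9 (24.2 to 31.2) in Dox. All the libraries of the 3 drug groups lay above all of their controls, for 5FU (log2 fold change 0.98, SE 0.105, edgeR adjusted p = 3.8e-12), for Ace (log2 0.90, SE 0.103, edgeR adjusted p = 9.9e-11) and for Dox (log2 1.08, SE 0.1, edgeR adjusted p = 4.9e-15). At 24 h Cdt1 had 6.64 CPM (6.2 to 6.91) in DMSO1, 6.25 (5.51 to 6.99) in 5FU, 7.35 (6.16 to 8.34) in DMSO2, 19 (13.5 to 20.5) in Ace and 30.4 (20.2 to 42.9) in Dox. By then 5FU overlapped its control and was not called (log2 fold change -0.08, SE 0.128, edgeR adjusted p = 0.6), Ace was above it (log2 1.33, SE 0.107, edgeR adjusted p = 1.4e-16), and Dox was far above it (log2 2.06, SE 0.106, edgeR adjusted p = 4.7e-27), with the 7 Dox libraries spread over a wide range.

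Cdc6, an ATPase that recruits the ring with Cdt1, had 10.2 CPM (8.34 to 12.2) in DMSO1, 18.5 (13.7 to 21.7) in 5FU, 7.47 (6.35 to 8.35) in DMSO2, 13.9 (13 to 17.2) in Ace and 9.07 (8.23 to 10.2) in Dox at 6 h. It rose with 5FU (log2 fold change 0.82, SE 0.117, edgeR adjusted p = 1.5e-08) and with Ace (log2 0.96, SE 0.115, edgeR adjusted p = 4.2e-10) with no overlap of libraries, and Dox was not called (log2 0.29, SE 0.114, edgeR adjusted p = 0.019). At 24 h the values were 3.71 CPM (2.25 to 4.4) in DMSO1, 2.9 (2.69 to 3.05) in 5FU, 4.35 (3.08 to 4.57) in DMSO2, 10.9 (8.85 to 12.7) in Ace and 5.08 (4.07 to 9.2) in Dox. The Ace libraries lay above all of their controls (log2 fold change 1.38, SE 0.119, edgeR adjusted p = 2.5e-15), whereas the Dox call was small (log2 0.39, SE 0.126, edgeR adjusted p = 0.0041) and rested on library 6, the highest of its group. Without that library the log2 fold change was 0.25 (edgeR adjusted p = 0.041), and the call was also lost without library 1 of DMSO2. Orc1, the regulated ATPase subunit of the origin recognition complex, had group medians between 1.53 and 5.72 CPM and rose with 5FU at 6 h (log2 fold change 0.58) and with Ace at 6 h (log2 0.82) and 24 h (log2 1.30). Orc6, the smallest subunit, was called higher in all 6 drug comparisons, by log2 fold changes from 0.44 for 5FU at 24 h to 1.09 for Ace at 24 h. Orc2, a core subunit, had medians between 22.5 and 35.2 CPM and was called higher in 5FU, Ace and Dox at 6 h and in Dox at 24 h (log2 fold change 0.48), although the call in 5FU was lost when any of 4 of the 12 libraries was left out.

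The MCM subunits, which form a single ring in equal amounts, moved in different directions with Dox. With Ace at 24 h all 6 were higher, against 18.2% of all genes, with log2 fold changes from 0.46 (Mcm4) to 1.10 (Mcm5). With Dox at 24 h Mcm4 (log2 fold change 0.58) and Mcm5 (log2 0.45) were higher, Mcm2 and Mcm6 (log2 -0.77) lower, and Mcm3 (log2 0.26, SE 0.108, edgeR adjusted p = 0.025) and Mcm7 (log2 0.15, SE 0.0667, edgeR adjusted p = 0.03) not called. Counts of 2 higher and 2 lower in 6 genes do not stand apart from the 40.4% and 41% of all genes called with Dox. Mcm2 had 65.8 CPM (59.3 to 72.9) in DMSO1, 68.7 (58.2 to 78.3) in 5FU, 62.5 (60.3 to 67.2) in DMSO2, 70.8 (68 to 78.3) in Ace and 35 (30.8 to 39.7) in Dox at 6 h. Dox was already below every DMSO2 library at that time (log2 fold change -0.81, SE 0.0649, edgeR adjusted p = 1.6e-17). At 24 h Mcm2 had 31.2 CPM (28.5 to 34.4) in DMSO1, 27.3 (25.3 to 30.6) in 5FU, 35.5 (32.9 to 40.3) in DMSO2, 51 (48.9 to 54.2) in Ace and 8.68 (5.41 to 9.93) in Dox. The highest Dox library lay below the lowest library of any other group (log2 fold change -2.07, SE 0.0747, edgeR adjusted p = 2.7e-35), and without the libraries that stand apart the log2 fold change was -1.95.

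Mcm7 was the only subunit called lower with 5FU. Its values at 6 h were 60.3 CPM (55.5 to 67.4) in DMSO1, 46.8 (43.2 to 49.2) in 5FU, 54.9 (53 to 58.2) in DMSO2, 59.7 (51.7 to 64) in Ace and 59.1 (48.5 to 61.8) in Dox, and 5FU lay below every DMSO1 library (log2 fold change -0.39, SE 0.0702, edgeR adjusted p = 3.5e-06). At 24 h they were 33.9 CPM (24.8 to 37.3) in DMSO1, 16.4 (15 to 19.8) in 5FU, 36.8 (34.5 to 38.4) in DMSO2, 54.8 (50 to 57.8) in Ace and 40.8 (33.5 to 48.4) in Dox. Here 5FU was again below all of its controls (log2 fold change -0.97, SE 0.0764, edgeR adjusted p = 2.2e-17) and Ace above all of its own (log2 0.57, SE 0.0659, edgeR adjusted p = 4.8e-11). The gene also hosts the microRNA genes Mir25, Mir93 and Mir106b. Mcm5 (log2 fold change 0.33), Mcm3 (log2 0.51) and Mcm4 (log2 0.35) rose with Dox at 6 h, and Mcm5 was the only subunit called higher with 5FU, by log2 0.27 at 6 h, a call lost when any of 7 of the 12 libraries was left out, and by log2 0.37 at 24 h. Across the 10 groups the medians ran from 15.2 to 80.2 CPM for Mcm5, 16.4 to 60.5 for Mcm3, 23.4 to 57.4 for Mcm4 and 16.3 to 84.2 for Mcm6.

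**Figure D3:**
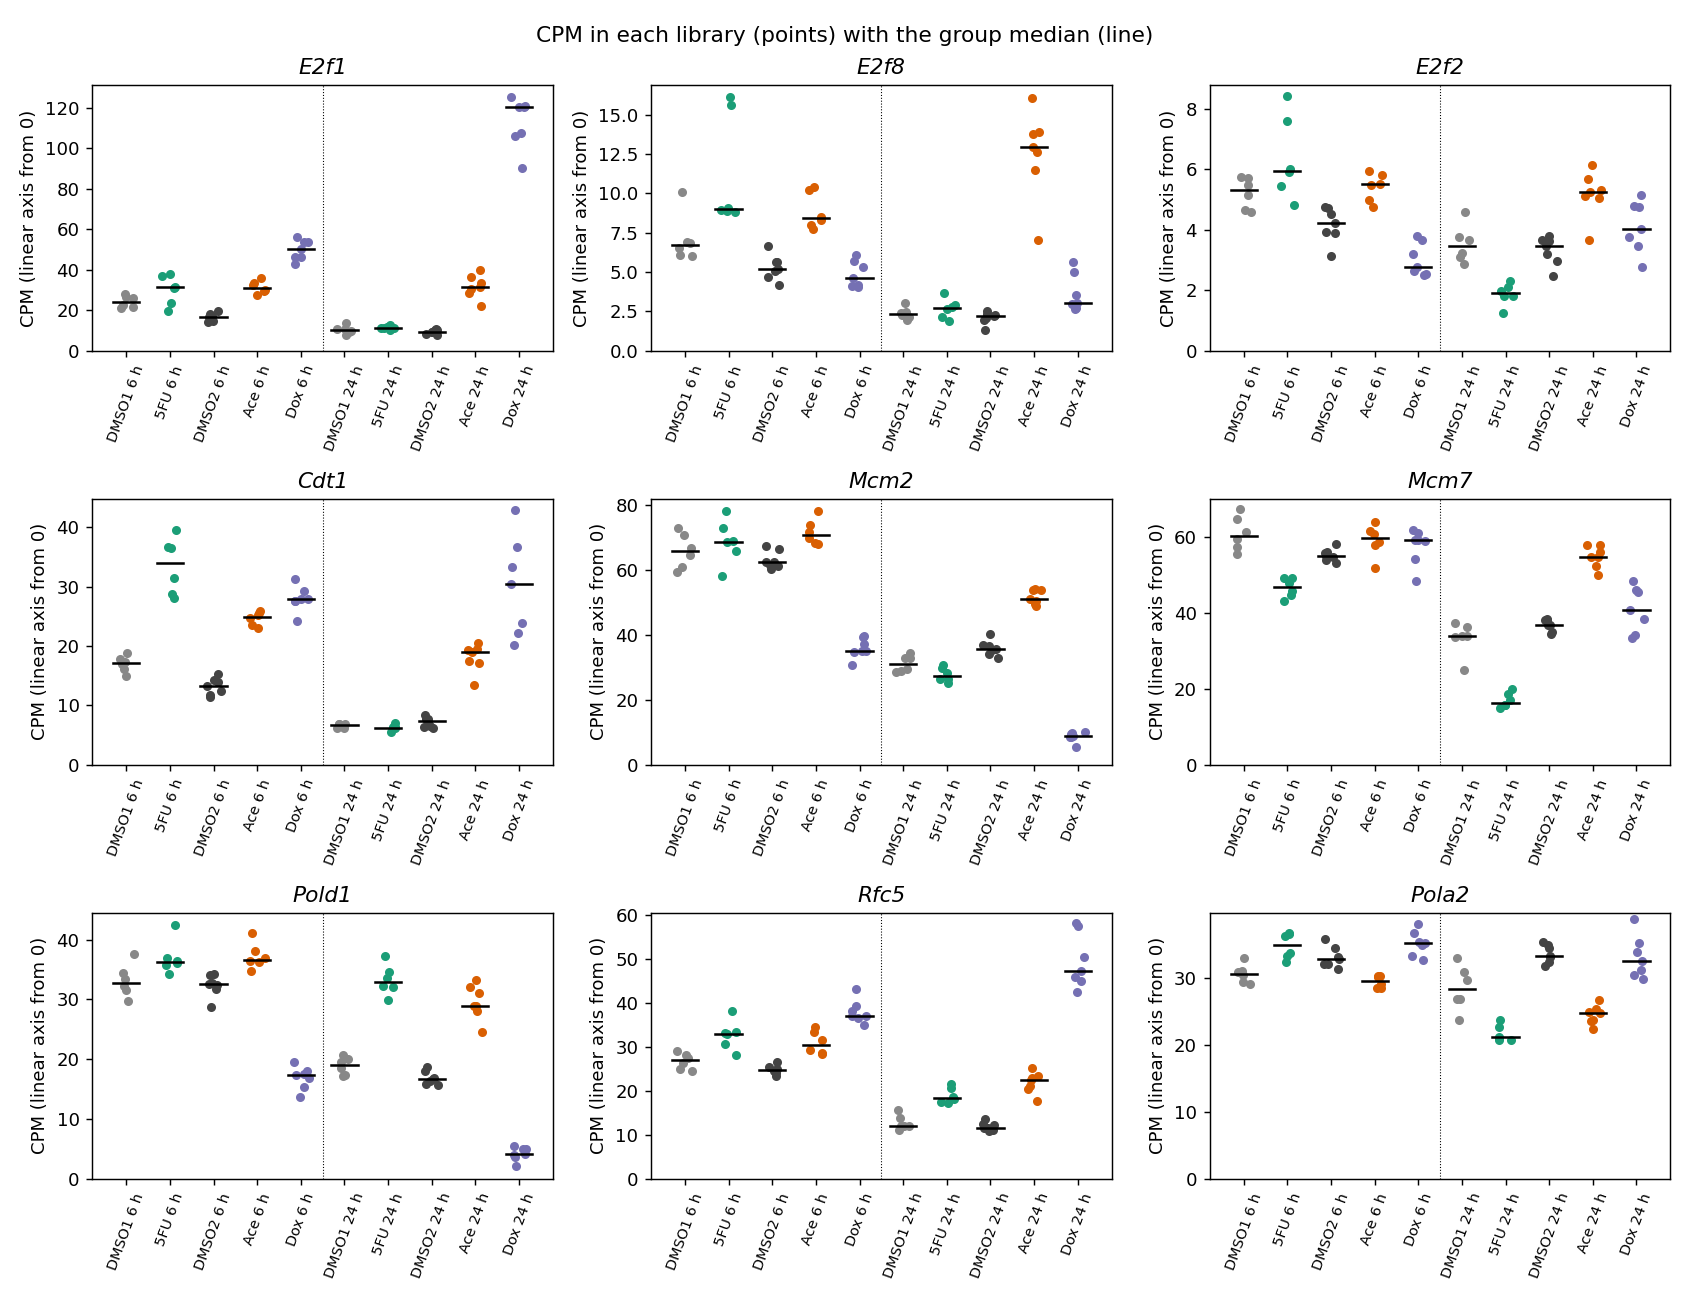
Points are the CPM of single libraries in the 10 groups for 9 of the genes, on linear axes that start at 0, lines are group medians, and the dotted line parts 6 h from 24 h. By median, E2f1 and Rfc5 stand highest in Dox at 24 h, Cdt1 in 5FU at 6 h followed by Dox at 24 h, Mcm2 and Pold1 are lowest in Dox at 24 h, Mcm7 and E2f2 lowest in 5FU at 24 h, E2f8 is highest in Ace at 24 h, and Pola2 is lowest in 5FU and Ace at 24 h.

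Promoter sequence was read from RefSeq (rat assembly GRCr8), in windows of 300 bases from 250 before to 50 after the annotated start, for the 32 genes of the set with an entry. The E2F words searched on both strands, each occurrence counted also where words overlap, were TTTCCCGC, TTTCGCGC, TTTGCCGC and TTTGGCGC. At least 1 was found in 13 of the 32 windows (40.6%), against 3.89% of the windows of 11403 genes of the table and 2.25% of all 27457 windows. CCAAT was in 75.0% of the 32 windows against 37% and 37.7%, and the CHR words TTTGAA or TTCGAA in 15.6% against 13.5% and 19.5%. The genes with an E2F word were Cdt1, Dnmt1, Gins1, Gins3, Mcm2, Mcm3, Mcm5, Mcm6, Mcm7, Pola1, Pole, Rfc3 and Rpa2. Among them, 13 of 13 were called lower with time in the controls and 13 of 13 higher with Ace at 24 h, while with Dox at 24 h 4 were called higher and 6 lower. Of all genes, 31.9% fell with time, 18.2% rose with Ace at 24 h, and 40.4% rose and 41% fell with Dox at 24 h, so the Dox counts of the genes with a word are near the background. Of the 19 without a word, 16 fell with time, 15 rose with Ace at 24 h, and 11 rose and 6 fell with Dox at 24 h. Stretches of 110 bases, from 60 before to 50 after the start, are shown for 6 genes that moved together in the controls and with Ace and apart with Dox, 5′ to 3′ on the gene's strand, with the bases of E2F words in capitals. Mcm2 (chr4:122918045-122918154, minus strand) and Gins1 (chr3:160184860-160184969, plus strand) were lower with Dox at 24 h, Cdt1 (chr19:67529189-67529298, plus strand), Pole (chr12:52053613-52053722, minus strand) and Mcm5 (chr19:13488753-13488862, plus strand) were higher, and Mcm7 (chr12:22163129-22163238, minus strand) was not called.
Mcm2: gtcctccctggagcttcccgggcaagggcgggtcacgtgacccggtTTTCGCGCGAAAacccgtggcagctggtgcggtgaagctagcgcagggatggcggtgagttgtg
Gins1: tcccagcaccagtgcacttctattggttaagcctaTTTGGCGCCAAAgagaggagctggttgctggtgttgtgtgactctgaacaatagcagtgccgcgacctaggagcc
Cdt1: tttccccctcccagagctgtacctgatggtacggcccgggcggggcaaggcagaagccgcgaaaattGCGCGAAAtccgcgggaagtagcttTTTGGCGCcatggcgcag
Pole: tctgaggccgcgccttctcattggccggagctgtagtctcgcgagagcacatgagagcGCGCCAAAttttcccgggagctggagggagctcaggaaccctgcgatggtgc
Mcm5: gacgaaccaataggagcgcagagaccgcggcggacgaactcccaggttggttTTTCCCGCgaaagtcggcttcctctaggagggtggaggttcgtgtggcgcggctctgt
Mcm7: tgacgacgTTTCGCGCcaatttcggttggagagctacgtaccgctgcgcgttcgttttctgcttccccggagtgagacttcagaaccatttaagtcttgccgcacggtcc
In Mcm2 and Gins1 the word overlaps its own copy on the other strand, so that both run into 1 stretch of 12 capitals. Matches of letters are given as a description of these windows and not as bound sites.

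Of the 6 genes of helicase activation, 5 rose with Ace at 24 h, against 18.2% of all genes. With Dox at 24 h 3 were higher and 1 lower, which in 6 genes does not stand apart from the 40.4% and 41% of all genes. Mcm10, a factor needed to start the helicase, had group medians between 4.74 and 16.8 CPM, rose with Ace at 6 h (log2 fold change 0.45) and 24 h (log2 1.54, SE 0.1, edgeR adjusted p = 2.5e-20), and fell with 5FU at 24 h (log2 -0.38, SE 0.118, edgeR adjusted p = 0.0037). Without library 5 of 5FU that fall of Mcm10 was log2 -0.25 (edgeR adjusted p = 0.043), and it was lost without library 3 or library 5 of DMSO1. Cdc45, the helicase's partner, rose with Ace at 6 h (log2 fold change 0.42) and 24 h (log2 1.36) and with Dox at 24 h (log2 0.51). The 4 GINS genes, which encode a complex of equal parts, differed among themselves. With Dox at 24 h Gins4 (log2 fold change 1.27, SE 0.101, edgeR adjusted p = 3.5e-18) and Gins2 (log2 1.05, SE 0.0793, edgeR adjusted p = 3.9e-19) were higher, Gins1 lower (log2 -0.96, SE 0.134, edgeR adjusted p = 2.2e-09), and Gins3 not called (log2 0.11, SE 0.139, edgeR adjusted p = 0.45). The annotation has the span of Gins2 overlapping that of Gse1, which is also in the table, and kallisto's default counting uses no strand. The Gins2 values are uncertain as far as transcripts of both genes share sequence, which was not checked.

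Gins3 had 7.46 CPM (7.13 to 9.47) in DMSO1, 10.6 (8.7 to 12.1) in 5FU, 6.61 (5.35 to 7.79) in DMSO2, 8.7 (7.77 to 9.45) in Ace and 5.28 (4.83 to 6.41) in Dox at 6 h. At 24 h Gins3 had 3.29 CPM (2.66 to 4.45) in DMSO1, 6.46 (5.62 to 6.94) in 5FU, 3.03 (2.78 to 4.12) in DMSO2, 7.22 (4.85 to 7.91) in Ace and 3.52 (1.64 to 5.31) in Dox. It was above all DMSO1 libraries in 5FU at 24 h (log2 fold change 0.86, SE 0.142, edgeR adjusted p = 3.2e-07) and above all DMSO2 libraries in Ace at 24 h (log2 1.11, SE 0.13, edgeR adjusted p = 8e-11). The 4 GINS genes of the Ace group at 24 h had log2 fold changes of 1.42 (Gins1), 1.11 (Gins3), 1.08 (Gins4) and 0.23 (Gins2, not called).

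Among the polymerase and primase genes, the subunits of polymerase δ separated 5FU from Dox. Pold1, its catalytic subunit, had 32.7 CPM (29.8 to 37.6) in DMSO1, 36.2 (34.3 to 42.5) in 5FU, 32.5 (28.7 to 34.2) in DMSO2, 36.6 (34.7 to 41.1) in Ace and 17.3 (13.7 to 19.6) in Dox at 6 h. Dox lay below every DMSO2 library (log2 fold change -0.94, SE 0.0788, edgeR adjusted p = 1.2e-16), and Ace just above them without a call (log2 0.20, SE 0.078, edgeR adjusted p = 0.03). At 24 h Pold1 had 19 CPM (17.2 to 20.7) in DMSO1, 32.9 (29.9 to 37.2) in 5FU, 16.7 (15.7 to 18.7) in DMSO2, 28.8 (24.5 to 33.2) in Ace and 4.18 (2.14 to 5.37) in Dox. The 5FU and Ace libraries lay above all of their controls (log2 fold change 0.82, SE 0.0846, edgeR adjusted p = 6.9e-13 and log2 0.81), and the Dox libraries below all of theirs (log2 -2.04, SE 0.0951, edgeR adjusted p = 2.3e-29). Pold2, the second subunit, had 39 CPM (35.3 to 43.7) in DMSO1, 41.7 (37.6 to 46.4) in 5FU, 37 (34.1 to 38) in DMSO2, 40.6 (39.6 to 42.8) in Ace and 32.2 (28.9 to 35) in Dox at 6 h. At 24 h Pold2 had 24.6 CPM (21.9 to 32.1) in DMSO1, 46.8 (45.7 to 51) in 5FU, 24.2 (22.9 to 27.3) in DMSO2, 34 (32 to 35.8) in Ace and 10.7 (5.77 to 12.7) in Dox. Its log2 fold change at 24 h was 0.89 with 5FU (edgeR adjusted p = 1.8e-15), 0.45 with Ace (edgeR adjusted p = 3.7e-07) and -1.26 with Dox (edgeR adjusted p = 1e-22), each with no overlap between drug and control. Without the libraries that stand apart the Dox values were -1.93 for Pold1 and -1.18 for Pold2.

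Pole, the catalytic subunit of polymerase ε on the leading strand, moved the other way with Dox. Its group medians ran from 8.55 to 35 CPM, and at 24 h it had 8.55 CPM (8.1 to 10.1) in DMSO1, 9.86 (8.82 to 11.4) in 5FU, 8.75 (7.76 to 10.4) in DMSO2, 27.5 (20.8 to 29.2) in Ace and 35 (20.9 to 40.9) in Dox. It was higher with Ace (log2 fold change 1.58, SE 0.104, edgeR adjusted p = 3.4e-20) and with Dox (log2 1.94, SE 0.104, edgeR adjusted p = 2.6e-26) with no overlap, and not called with 5FU (log2 0.15, SE 0.12, edgeR adjusted p = 0.26). Pola1, the catalytic subunit of polymerase α, fell with Dox at 24 h (log2 fold change -0.98, SE 0.0887, edgeR adjusted p = 6.6e-16) and rose with Ace (log2 0.41), with group medians between 7.54 and 20.3 CPM. Prim1, the primase that lays the RNA primers, had medians between 15.5 and 43.1 CPM and had log2 fold changes of 0.64 with Ace and -0.24 with Dox at 24 h, both called. Without library 7 of Dox the fall of Prim1 was log2 -0.14 (edgeR adjusted p = 0.055), and it was also lost without library 2 or library 4. Pola2, the accessory subunit of polymerase α, was the only gene of the set called lower with Ace at either time. It had 30.7 CPM (29.1 to 33) in DMSO1, 35 (32.4 to 36.6) in 5FU, 32.8 (31.4 to 35.8) in DMSO2, 29.6 (28.6 to 30.3) in Ace and 35.3 (32.7 to 38.1) in Dox at 6 h. At 24 h Pola2 had 28.3 CPM (23.7 to 32.9) in DMSO1, 21.1 (20.7 to 23.7) in 5FU, 33.3 (31.7 to 35.4) in DMSO2, 24.7 (22.4 to 26.6) in Ace and 32.5 (29.8 to 38.8) in Dox. The fall with Ace at 6 h was small (log2 fold change -0.17, SE 0.0526, edgeR adjusted p = 0.0082) and was lost when any of 8 libraries was left out or with another filter on low counts, whereas at 24 h the groups did not overlap (log2 -0.46, SE 0.051, edgeR adjusted p = 1.9e-11). With 5FU it was slightly higher at 6 h (log2 fold change 0.18, SE 0.0543, edgeR adjusted p = 0.003), a call lost when any of 4 of the 12 libraries was left out, and lower at 24 h (log2 -0.40, SE 0.0562, edgeR adjusted p = 8.2e-09).

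Of the 6 genes of the clamp and its loader, 5 were called higher with 5FU and 5 with Ace at 24 h, and with Dox 4 were higher and 2 lower, against 28%, 18.2%, 40.4% and 41% of all genes. The Dox counts in 6 genes do not stand apart from these shares. Pcna, the sliding clamp that also serves repair, was called higher in all 6 comparisons, by log2 fold changes of 0.24 and 0.70 with 5FU and of 0.79 and 1.06 with Dox at 6 and 24 h, by 0.59 with Ace at 6 h, and 2-fold with Ace at 24 h (SE 0.0572 on the log2 scale, edgeR adjusted p = 9.1e-23). At 24 h Pcna had 45.9 CPM (39.8 to 46.9) in DMSO1, 71.8 (66.4 to 77.4) in 5FU, 43.3 (38 to 51) in DMSO2, 86.6 (81.3 to 92.7) in Ace and 92.9 (71.1 to 98.9) in Dox, so that all 3 drug groups lay above all of their controls. Rfc5, a small subunit of the loader, was also called higher in all 6. It had 27 CPM (24.5 to 29) in DMSO1, 33 (28.1 to 38.2) in 5FU, 24.7 (23.3 to 26.4) in DMSO2, 30.3 (28.4 to 34.5) in Ace and 37 (35 to 43.1) in Dox at 6 h. At 24 h Rfc5 had 12 CPM (11.1 to 15.6) in DMSO1, 18.3 (17.2 to 21.6) in 5FU, 11.5 (10.7 to 13.5) in DMSO2, 22.5 (17.6 to 25.1) in Ace and 47.3 (42.4 to 58.2) in Dox. The rise with Dox, by a log2 fold change of 0.62 at 6 h and 2.06 at 24 h (edgeR adjusted p = 1.4e-35), put the 24 h libraries above all others of their time. Rfc2 (log2 fold change 0.78 with 5FU, log2 0.71 with Ace, log2 0.93 with Dox) and Rfc4 (log2 0.35, log2 0.76 and log2 1.05) were called higher with every drug at 24 h, although the 5FU call of Rfc4 was lost without library 3 of 5FU or library 2 of DMSO1. Rfc1, the large subunit, and Rfc3 fell with Dox at 24 h (log2 fold change -0.87, SE 0.0528, edgeR adjusted p = 1.7e-23 and log2 -0.69, SE 0.064, edgeR adjusted p = 2e-15), and Rfc1 rose with 5FU (log2 0.34). Group medians ran from 31.4 to 71.2 CPM for Rfc1, 16.5 to 41.8 for Rfc2, 9.94 to 31.4 for Rfc3 and 9.13 to 27.8 for Rfc4.

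Rpa1 and Rpa2, subunits of the protein that coats single-stranded DNA, rose with every drug at 24 h. Of all genes, 28%, 18.2% and 40.4% rose at that time with 5FU, Ace and Dox. Rpa2 had 27.2 CPM (26.3 to 28) in DMSO1, 34.6 (32.7 to 36.3) in 5FU, 23.4 (21.1 to 24.9) in DMSO2, 24.3 (22.1 to 26) in Ace and 33.2 (30.2 to 34.5) in Dox at 6 h. At 24 h Rpa2 had 13.7 CPM (12.4 to 22.3) in DMSO1, 26.6 (24.6 to 30.1) in 5FU, 14.6 (13.3 to 15.5) in DMSO2, 23.6 (18.7 to 26.6) in Ace and 28.2 (25.2 to 39.9) in Dox. The log2 fold change at 24 h was 0.86 with 5FU (edgeR adjusted p = 1e-12), 0.65 with Ace and 1.08 with Dox (edgeR adjusted p = 7e-19), although library 1 of DMSO1 reached 22.3 CPM where the next library was at 14.3, and without the libraries that stand apart the value for 5FU was 1.01. Rpa1, the large subunit, had 84.2 CPM (81.8 to 110) in DMSO1, 125 (119 to 128) in 5FU, 82.4 (75.6 to 86.8) in DMSO2, 113 (96.3 to 117) in Ace and 175 (169 to 209) in Dox at 24 h, with the Dox libraries above all others (log2 fold change 1.12, SE 0.0481, edgeR adjusted p = 2.4e-31). Rrm1, the large subunit of ribonucleotide reductase, which makes deoxynucleotides, rose with Dox at 6 h (log2 fold change 0.35, SE 0.0723, edgeR adjusted p = 1.8e-05) and fell below all of its controls at 24 h (log2 -0.83, SE 0.0745, edgeR adjusted p = 6.3e-16). With Ace at 24 h it was higher (log2 fold change 0.35), and with 5FU it was not called at either time (log2 0.21, SE 0.0778, edgeR adjusted p = 0.019 and log2 0.21, SE 0.079, edgeR adjusted p = 0.019). Its group medians ran from 60.1 to 217 CPM.

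The largest log2 fold change of the set was that of an E2F factor both with Ace and with Dox at 24 h, E2f8 and E2f1. E2f1, the best known activator, had 24.3 CPM (21 to 27.8) in DMSO1, 31.3 (19.5 to 38) in 5FU, 16.8 (14.4 to 19.7) in DMSO2, 31.2 (27.5 to 36.1) in Ace and 50.4 (42.8 to 56.1) in Dox at 6 h. Both Ace (log2 fold change 0.92, SE 0.111, edgeR adjusted p = 4.6e-10) and Dox (log2 1.58, SE 0.107, edgeR adjusted p = 1e-20) lay above all DMSO2 libraries, and 5FU overlapped DMSO1 and was not called (log2 0.31, SE 0.113, edgeR adjusted p = 0.015). At 24 h E2f1 had 10.3 CPM (7.8 to 14) in DMSO1, 11.5 (10.1 to 12.6) in 5FU, 9.08 (7.86 to 10.8) in DMSO2, 31.4 (22 to 39.9) in Ace and 120 (90.3 to 125) in Dox. Dox libraries stood above every library of the other groups (log2 fold change 3.59, SE 0.115, edgeR adjusted p = 4.6e-38), Ace came next (log2 1.76, SE 0.114, edgeR adjusted p = 2.1e-20), and 5FU was in the range of its control (log2 0.13, SE 0.131, edgeR adjusted p = 0.4). E2f7, an atypical repressor, had 4.87 CPM (4.06 to 5.5) in DMSO1, 6.99 (5.78 to 11.6) in 5FU, 3.15 (2.33 to 3.32) in DMSO2, 5.59 (3.85 to 5.69) in Ace and 6.35 (5.32 to 7.74) in Dox at 6 h. At 24 h E2f7 had 1.86 CPM (1.57 to 2.54) in DMSO1, 3.04 (2.84 to 3.26) in 5FU, 1.89 (1.06 to 2.51) in DMSO2, 6.76 (4.75 to 7.56) in Ace and 7.07 (4.88 to 7.91) in Dox. It was called higher in all 6 drug comparisons with no overlap between drug and control, most with Dox (log2 fold change 1.89, SE 0.15, edgeR adjusted p = 3.1e-18) and Ace (log2 1.88, SE 0.149, edgeR adjusted p = 8.1e-17) at 24 h.

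E2f8, the partner repressor, was highest with Ace at 24 h. It had 6.71 CPM (6.04 to 10.1) in DMSO1, 9 (8.81 to 16.1) in 5FU, 5.18 (4.2 to 6.69) in DMSO2, 8.41 (7.75 to 10.4) in Ace and 4.64 (4.07 to 6.1) in Dox at 6 h, where Ace lay above all DMSO2 libraries (log2 fold change 0.74, SE 0.161, edgeR adjusted p = 0.00012), 5FU was also called (log2 0.66, SE 0.162, edgeR adjusted p = 0.00037) and Dox was not (log2 -0.12, SE 0.163, edgeR adjusted p = 0.52). At 24 h E2f8 had 2.35 CPM (1.93 to 3.04) in DMSO1, 2.75 (1.87 to 3.66) in 5FU, 2.22 (1.35 to 2.53) in DMSO2, 12.9 (7.02 to 16.1) in Ace and 3.06 (2.66 to 5.66) in Dox. The Ace libraries were above all others, the lowest of them being library 7 (log2 fold change 2.56, SE 0.171, edgeR adjusted p = 5.9e-20), Dox was above its control by less (log2 0.78, SE 0.186, edgeR adjusted p = 0.00013), and 5FU was not called (log2 0.17, SE 0.205, edgeR adjusted p = 0.48). E2f2, the second activator of the set, had 5.31 CPM (4.58 to 5.74) in DMSO1, 5.96 (4.83 to 8.43) in 5FU, 4.21 (3.14 to 4.76) in DMSO2, 5.5 (4.77 to 5.96) in Ace and 2.76 (2.5 to 3.8) in Dox at 6 h. At 24 h E2f2 had 3.45 CPM (2.88 to 4.6) in DMSO1, 1.9 (1.26 to 2.31) in 5FU, 3.45 (2.49 to 3.8) in DMSO2, 5.25 (3.66 to 6.14) in Ace and 4.04 (2.79 to 5.16) in Dox. It fell with Dox at 6 h (log2 fold change -0.46, SE 0.13, edgeR adjusted p = 0.0012) and below all of its controls with 5FU at 24 h (log2 -0.91, SE 0.151, edgeR adjusted p = 3.6e-07), and it was higher with Ace at 24 h (log2 0.64, SE 0.126, edgeR adjusted p = 1.9e-05) with 1 library in the range of the controls.

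Both cyclin E genes rose with every drug at 6 h, when 23.4%, 16.5% and 31.5% of all genes rose with 5FU, Ace and Dox. Ccne1 had 17.6 CPM (16.2 to 21.6) in DMSO1, 29.1 (27.6 to 33.1) in 5FU, 16.2 (15.1 to 19) in DMSO2, 21.9 (21.3 to 24.9) in Ace and 19.5 (18.5 to 22.6) in Dox at 6 h, and its log2 fold change was largest with 5FU (log2 fold change 0.72, SE 0.0695, edgeR adjusted p = 9.8e-14), without overlap. At 24 h Ccne1 had 8.59 CPM (7.22 to 9.53) in DMSO1, 10.8 (9.29 to 11.2) in 5FU, 7.65 (7.04 to 8.45) in DMSO2, 21.9 (18.3 to 25.6) in Ace and 8.79 (7.55 to 10.2) in Dox, with Ace above every other library (log2 fold change 1.48, SE 0.0699, edgeR adjusted p = 2.2e-26), and 5FU (log2 0.32, SE 0.078, edgeR adjusted p = 0.00024) and Dox (log2 0.21, SE 0.0739, edgeR adjusted p = 0.0066) called by less than the Ace value. The Dox call of Ccne1 was lost when any of 4 of the 14 libraries was left out. Ccne2 had 14.7 CPM (11.3 to 19.7) in DMSO1, 21.8 (17.1 to 27.4) in 5FU, 9.68 (8.37 to 10.8) in DMSO2, 19.3 (17.1 to 23.3) in Ace and 13.2 (12.3 to 15.6) in Dox at 6 h. At 24 h Ccne2 had 6.45 CPM (5.44 to 6.58) in DMSO1, 8.4 (6.47 to 9.47) in 5FU, 6.53 (5.61 to 7.33) in DMSO2, 19.3 (14.8 to 21.5) in Ace and 22.1 (20.2 to 32.1) in Dox. It rose with Ace at both times (log2 fold change 1.02, SE 0.11, edgeR adjusted p = 1.4e-11 and log2 1.51, SE 0.112, edgeR adjusted p = 4.5e-18) and with Dox at 6 h (log2 0.52) and 24 h (log2 1.91, SE 0.111, edgeR adjusted p = 1.7e-24), each without overlap. The annotation has the span of Ccne2 overlapping that of Ints8, also in the table. For lack of strand the Ccne2 values are uncertain as far as transcripts of both genes share sequence, which was not checked.

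Both maintenance methylation genes fell with Dox at 6 and 24 h and rose with Ace at 24 h. Of all genes, 32.7% and 41% fell with Dox at 6 and 24 h and 18.2% rose with Ace at 24 h. Counts in 2 genes do not stand apart from such shares. Uhrf1, which finds newly copied DNA, had 42.9 CPM (36.8 to 49.7) in DMSO1, 36.9 (29.6 to 43) in 5FU, 34.8 (32 to 37) in DMSO2, 43.3 (38.9 to 44.8) in Ace and 18.1 (14 to 20.1) in Dox at 6 h, and the Dox libraries lay below all others (log2 fold change -1.01, SE 0.101, edgeR adjusted p = 9.6e-14). At 24 h Uhrf1 had 15.2 CPM (10.5 to 16.6) in DMSO1, 12.3 (11.1 to 13.8) in 5FU, 16.2 (14 to 18.6) in DMSO2, 47.6 (33.1 to 50.7) in Ace and 7.48 (5.25 to 12.1) in Dox, with Dox below (log2 fold change -1.05, SE 0.112, edgeR adjusted p = 4e-13) and Ace above (log2 1.47, SE 0.1, edgeR adjusted p = 1.5e-19) all DMSO2 libraries. Dnmt1, the methyltransferase that Uhrf1 recruits, had 123 CPM (114 to 133) in DMSO1, 112 (92.4 to 120) in 5FU, 108 (98.5 to 119) in DMSO2, 143 (138 to 152) in Ace and 87.3 (79.2 to 97) in Dox at 6 h. At 24 h Dnmt1 had 67.9 CPM (61.1 to 77) in DMSO1, 71.5 (66.1 to 74.3) in 5FU, 72.7 (67.9 to 78) in DMSO2, 109 (103 to 117) in Ace and 57 (43.4 to 64.9) in Dox. It was lower with Dox (log2 fold change -0.33, SE 0.0567, edgeR adjusted p = 7.4e-07 and log2 -0.38, SE 0.0579, edgeR adjusted p = 2.7e-08) and higher with Ace (log2 0.39, SE 0.0583, edgeR adjusted p = 1e-07 and log2 0.59, SE 0.057, edgeR adjusted p = 1.4e-13) at 6 and 24 h, without overlap. The fall with 5FU at 6 h (log2 fold change -0.18, SE 0.0608, edgeR adjusted p = 0.0091) was lost with DESeq2, with its size factors, with only the compared groups in the fit, with another filter on low counts, without the libraries that stand apart and without any of 7 single libraries, where the adjusted p was between 0.011 and 0.044.

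The change of each effect from 6 to 24 h was tested as a difference of differences. For Ace 28 of the 40 genes had a higher log2 fold change at 24 h than at 6 h and 1, Pola2, a lower one, against 5.58% and 6.06% of all genes, with the largest gain in E2f8 (1.82, SE 0.236, edgeR adjusted p = 1.2e-08). For Dox 16 were higher and 10 lower, against 34% and 30.8%, from E2f1 (log2 difference 2.01, SE 0.154, edgeR adjusted p = 2.5e-18) to Mcm2 (log2 difference -1.26, SE 0.0988, edgeR adjusted p = 6.2e-18). For 5FU 6 were higher and 8 lower, against 20.3% and 19.2%, and 9 and 6 with library-size scaling. The counts for Dox and for 5FU are near the shares of all genes. Gains of the 5FU effect were in Pold2 (log2 difference 0.78), Pold1 (log2 0.66) and 4 others, and its losses included E2f2 (log2 -1.20), Cdc6 (log2 -1.12) and Cdt1 (log2 -1.06).

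The effects of the drugs at 24 h were also compared with each other, each against its own vehicle. Ace was not tested against Dox, and the drugs were not compared with each other at 6 h. The Dox effect exceeded the 5FU effect for 17 of the 40 genes and fell short of it for 12, against 35.8% and 35.4% of all genes. Both counts are near these shares. The extremes were E2f1 (log2 difference 3.46, SE 0.173, edgeR adjusted p = 2.7e-27) and Cdt1 (log2 2.14, SE 0.167, edgeR adjusted p = 3e-18) above, and Pold1 (log2 -2.85, SE 0.128, edgeR adjusted p = 9.6e-30) and Pold2 (log2 -2.15, SE 0.112, edgeR adjusted p = 1.8e-26) below. The Ace effect exceeded the 5FU effect for 26 genes and fell short of it for 2, Pold2 (log2 difference -0.44, SE 0.107, edgeR adjusted p = 0.00051) and Rfc1 (log2 -0.23, SE 0.0752, edgeR adjusted p = 0.0091), against 19.1% and 18.2% of all genes. The difference in Rfc1 was lost when any of 16 of the 26 libraries was left out. The largest differences were in E2f8 (log2 difference 2.39), Mcm10 (log2 1.92) and Uhrf1 (log2 1.71).

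**Figure D4:**
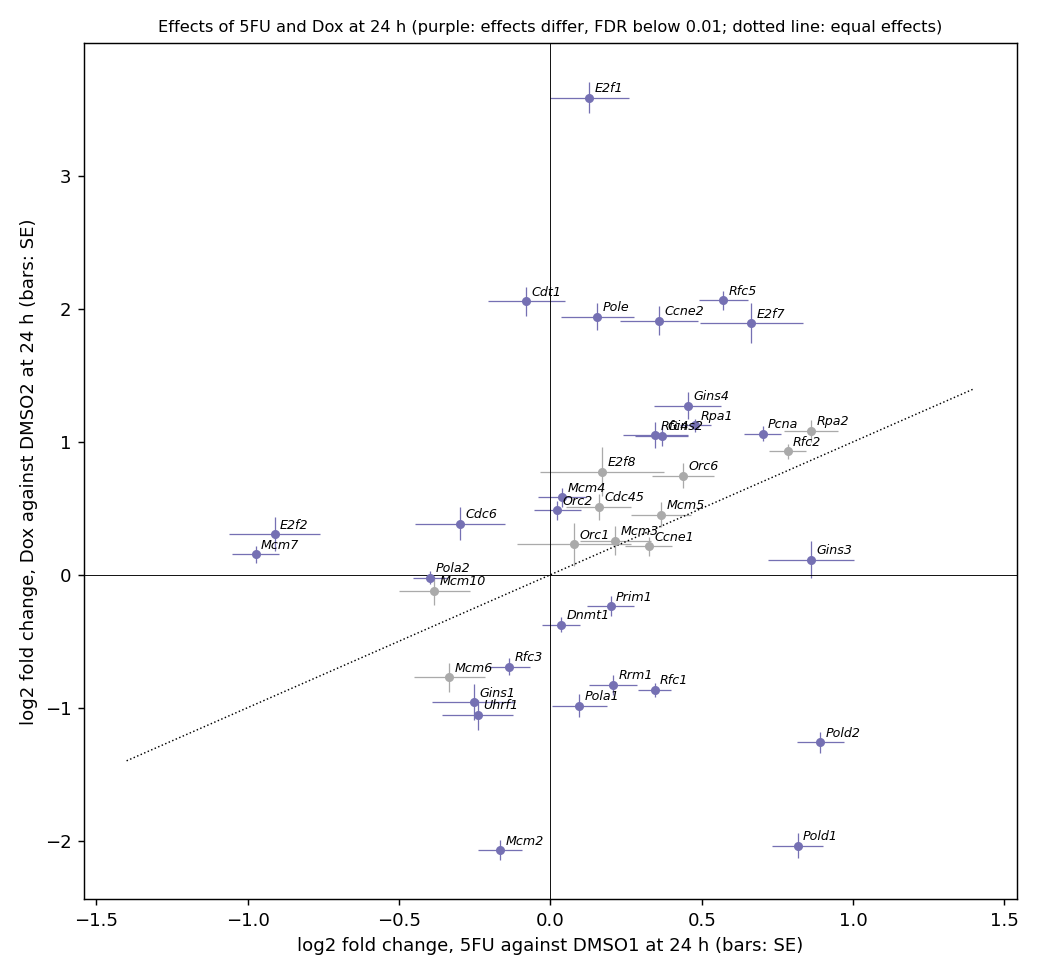
Each point is 1 of the 40 genes, with the log2 fold change at 24 h of 5FU against DMSO1 on the horizontal axis and of Dox against DMSO2 on the vertical axis, SE as bars, and the 29 genes whose effects differ at FDR below 0.01 in purple. E2f1 stands at the top with 3.59 for Dox and 0.13 for 5FU, and Pold1 and Pold2 lie at the lower right, raised by 5FU and lowered by Dox.

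Other genes of the same machinery, from lists of textbook factors, were counted in the same comparisons. Of 35 other replication factors, 29 fell and 4 rose with time in the controls, 26 were called with Ace at 24 h, all higher, and 19 rose and 9 fell with Dox at 24 h. With 5FU at 24 h 12 of them rose and 6 fell, and their median log2 fold changes at 24 h were 0.13 for 5FU, 0.72 for Ace and 0.36 for Dox. With Dox at 24 h the largest rise among them was that of Gmnn, the geminin that binds Cdt1 (log2 fold change 2.93, SE 0.115, edgeR adjusted p = 2.5e-33), and the largest fall that of Orc5, an origin recognition subunit (-1.57, SE 0.0695, edgeR adjusted p = 1.5e-30). Of 28 other E2F target genes, 25 fell and 1 rose with time, 25 were called with Ace at 24 h, all higher, 17 rose and 6 fell with Dox at 24 h, and 14 rose and 3 fell with 5FU at 24 h. With Ace at 24 h Rrm2, the small subunit of ribonucleotide reductase (log2 fold change 2.04, SE 0.135, edgeR adjusted p = 3.8e-20), led that list. The 15 E2F partners and pocket proteins had 6 calls, all higher, with Ace at 24 h, 8 higher and 4 lower with Dox, 6 higher and 2 lower with 5FU, and 4 higher and 7 lower with time. Among them Mybl2, a Myb factor of cycling cells (log2 fold change 2.89, SE 0.0889, edgeR adjusted p = 5.8e-39), and Rb1, the pocket protein Rb (log2 2.38, SE 0.0741, edgeR adjusted p = 1e-38), rose most with Dox at 24 h. Of all genes, 32.7% rose and 31.9% fell with time, 28% and 27.8% rose and fell with 5FU, 18.2% and 19.1% with Ace and 40.4% and 41% with Dox at 24 h. The counts of the E2F partners with time, with 5FU and with Dox, and those of the replication factors with 5FU and with Dox, are near these shares. Gmnn, Mybl2, Tipin and Rbl1 each stand in more than 1 of these lists.

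Markers of dividing cells and of other cell types moved in the same comparisons. All 7 markers of dividing cells were called higher with Ace at 24 h, with summed levels of 288 to 493 CPM against 183 to 216 in DMSO2, and at 6 h 4 of the 7 were lower. With Dox at 24 h 1 was higher and 4 lower (153 to 198 CPM), and with 5FU at 24 h 1 was lower (202 to 238 against 219 to 254 CPM in DMSO1). With 5FU and with Dox at 6 h 5 of the 7 were lower, at times when 18 and 19 of the 40 replication genes were higher. Fibroblast markers were lower at 24 h with 5FU (10 of 10), Ace (9 of 10) and Dox (10 of 10). Of 8 endothelial markers, 6, 5 and 8 were lower at 24 h with 5FU, Ace and Dox, and Cldn5 was at no more than 3 counts in any Dox library at 24 h. Of 9 macrophage markers 4, 7 and 8 were lower, and 1 was higher with Dox. Of 7 smooth muscle and pericyte markers 4, 4 and 3 were lower, and 2, 0 and 3 were higher. Cardiomyocyte markers, 12 in all, were lower in 6 cases with 5FU, 3 with Ace and 9 with Dox at 24 h, and higher in 2, 2 and 1. Of all genes, 27.8%, 19.1% and 41% were lower and 28%, 18.2% and 40.4% higher at 24 h with 5FU, Ace and Dox, and 24.5%, 15.2% and 32.7% lower at 6 h. The smooth muscle and pericyte counts with Dox, and those called higher with 5FU, are near these shares. So are the cardiomyocyte counts with Ace and the dividing-cell counts with 5FU and with Dox at 24 h. The part of all these in the values of the 40 genes was not tested.

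**Figure D5:**
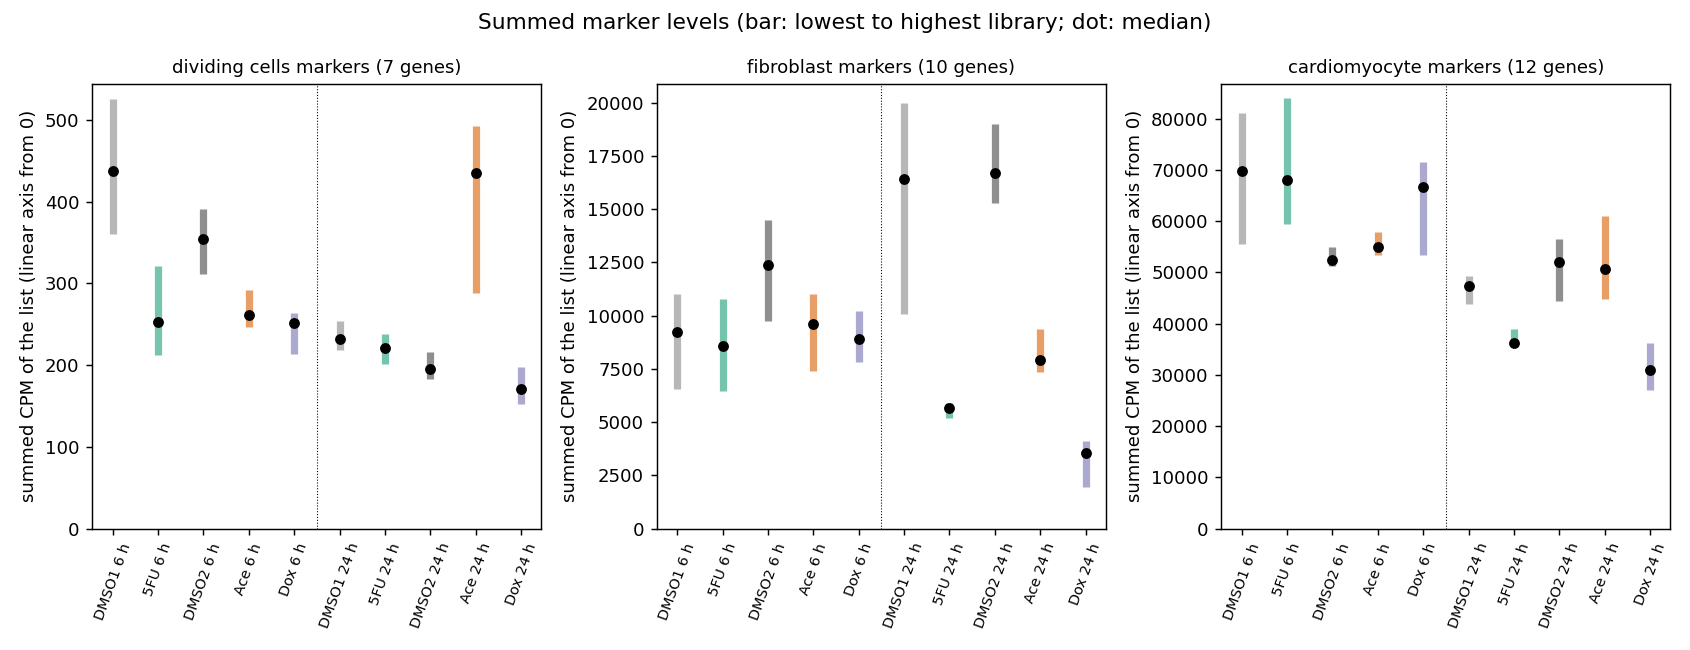
Bars run from the lowest to the highest library and dots mark the median of the summed CPM of 7 dividing-cell, 10 fibroblast and 12 cardiomyocyte markers in each group, on linear axes from 0. Dividing-cell markers at 24 h reach 288 to 493 CPM with Ace, fibroblast markers fall to 1970 to 4120 CPM with Dox, and cardiomyocyte markers to 27100 to 36300 CPM with Dox. That cardiomyocyte sum mixes opposite changes, with 9 markers called lower and 1 higher. At 24 h the median of Nppa was 1020 CPM in DMSO2 and 12200 in Dox, and that of Myh6 was 17900 and 1030.

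Over the 10 group means, the genes of the whole table with the pattern most like that of E2f1 were Nptx2 (Pearson r = 0.981), Mrps6 (0.98) and Plcxd2 (0.98). For Mcm5 they were Mcm3 (0.991), Pcyt2 (0.978) and Acat2 (0.968). The 10 means share their controls and culture times, and the values are a description.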

How the data were processed

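PolyA RNA of 65 libraries in 10 groups was measured. Per the labels and the methods, the authors pseudo-aligned paired reads with kallisto 0.46.0 (default settings, not strand-specific) to the rat Ensembl transcriptome, summed transcripts to Entrez genes with tximport and removed genes with consistently low counts; the deposited values are whole-number estimated counts, not scaled for depth. A table of the authors' own comparisons (fold changes and p-values) was not used.

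Here 14009 of 14554 gene IDs were paired with symbols through RefSeq. All genes were fitted in 1 edgeR 4.0.16 (R 4.3.3) quasi-likelihood model of 10 groups with TMM factors (0.859 to 1.069), requiring a count of 10 in at least 1 library, which removed no gene; genes were called at a Benjamini-Hochberg FDR below 0.01 over all genes. Comparisons were each drug against its vehicle at 6 and 24 h, DMSO1 against DMSO2, 24 against 6 h in the controls, and differences between effects, 14 in all. Log2 CPM and correlations used a prior count of 2. SE was the log2 fold change divided by the root of F. The scripts were tested on simulated counts. No pair of libraries in a group agreed within sampling noise (180 pairs, lowest chi-square 2.84 per gene).

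The columns name the group but not the replicate, so libraries are numbered within groups only as names. The 40 genes, the lists of other replication, E2F and marker genes, and the tests were chosen with earlier results of these data known. Levels in all groups are given for the 3 largest called rises and falls in each drug comparison, and for Pole, Pcna and Rpa1 at 24 h, which were added after their values were seen. The genes most like E2f1 and Mcm5 in pattern are named by correlation over group means, and the same result for Pcna is not reported here. From the lists, genes among the 2 largest called rises or falls in a comparison may be named. Of the listed genes, Pole3, Dna2, Hells, Chek1, Hmgb2, Ttn and Pecam1 were not analysed here. Of the 40 genes, Mcm4, Orc1, Cdc6, Gins4, E2f1, E2f2, E2f8 and Ccne2 had no promoter entry. Alternatives were DESeq2 1.42.0 (test, or size factors alone), library-size scaling, only the compared groups, other filters, FDR below 0.1 and each library left out; leaving out 5 libraries that stand apart was chosen after seeing the data.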

Additional observations from a re-analysis of the deposited data

Results flagged for a closer look

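Among the 18 genes with levels given in every group by rule, single libraries lay far from the rest of their group in 11 of 180 gene and group pairs. Chance alone gives about 1 in 20, and the number found is near that share. Library 1 of DMSO1 at 24 h was apart for Rpa2 (22.3 CPM), Mcm7 (24.8 CPM) and Ccne2 (5.44 CPM). Library 7 of Dox at 24 h was lowest for Mcm2 (5.41 CPM) and Pold2 (5.77 CPM), and library 6 of that group was highest for Cdc6 (9.2 CPM). Library 7 of Ace at 24 h was lowest for Gins3 (4.85 CPM), and library 1 of 5FU at 6 h was highest for Pold1 (42.5 CPM). The others were E2f8 in library 1 of DMSO1 at 6 h (10.1 CPM), Cdc6 in library 1 of DMSO2 at 24 h (3.08 CPM) and Ccne1 in library 4 of 5FU at 24 h (9.29 CPM).

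Effects that differed between times or drugs by a test of the difference (edgeR's quasi-likelihood test, FDR below 0.01) were found for 14 of the 40 genes between 24 and 6 h of 5FU, for 29 between 24 and 6 h of Ace, and for 26 between 24 and 6 h of Dox. At 24 h the Dox and 5FU effects differed for 29 genes, and the Ace and 5FU effects for 28. Of all genes, 20.3% were higher and 19.2% lower between times for 5FU, 5.58% and 6.06% for Ace, and 34% and 30.8% for Dox. For Dox against 5FU the shares were 35.8% and 35.4%, and for Ace against 5FU 19.1% and 18.2%. The counts between times of 5FU and of Dox, and between Dox and 5FU, are near these shares.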

How the results depend on the processing

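No paired analysis was possible because the columns of the table carry no replicate numbers. Among the 14 counts of genes called, no alternative reversed a gene called in both fits. With FDR below 0.1 the counts moved from 20 to 31 for 5FU at 6 h, from 14 to 26 for the 5FU effect at 24 against 6 h, from 12 to 25 for DMSO1 against DMSO2 at 6 h, and from 1 to 2 for that comparison at 24 h. DMSO1 against DMSO2 at 6 h gave 6 calls with library-size scaling and 21 without the 5 libraries that stand apart. At 24 h it gave 0 with library-size scaling, 0 with only the compared groups and 0 with edgeR's own filter on low counts. With single libraries left out, there were 14 to 24 calls for 5FU and 18 to 22 for Ace, 24 to 26 for Dox at 6 h, and 19 to 22 for 5FU, 37 to 38 for Ace and 32 to 35 for Dox at 24 h. The controls compared with each other gave 8 to 15 calls at 6 h, 0 to 1 at 24 h, and time in the controls gave 36 to 37. The lowest value of 5FU at 6 h was without library 1 of 5FU. Of 156 calls of single genes in the drug comparisons, 16 were lost when some single library was left out, all in genes with log2 changes of at most 0.41. The effects at 24 against 6 h gave 13 to 16 for 5FU, 25 to 29 for Ace and 26 to 27 for Dox, and the differences from 5FU at 24 h 29 to 31 for Dox and 27 to 29 for Ace. With library-size scaling the median log2 fold change of all genes was -0.15 for Dox at 6 h, and the median difference for Dox at 24 against 6 h was 0.27. The wider threshold admits more genes by construction, and the causes of the other shifts were not tested. Shares of all genes called were not counted for any of the alternatives. The lowest count of any of the 40 genes in a library was 18, and genes with few counts have wide errors, such as E2f8 at 24 h, with SE 0.171 for Ace, 0.186 for Dox and 0.205 for 5FU.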
